A study of Homo sapiens with 16 samples.

Results

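The genes described here make cholesterol and fatty acids or steer that synthesis. The list named 32 of them, in 3 groups by role: 18 enzymes of the sterol pathway, 5 genes that regulate sterol-dependent transcription or carry cholesterol, and 9 genes of fatty acid and glycerolipid synthesis. A gene was measured where a transcript cluster of the array carried its symbol and no other, and where several did, the cluster with the highest mean over all arrays was taken. That rule gave 30 of 32 genes among 33297 clusters, 16 sterol enzymes, 5 regulators and 9 fatty acid genes. FDFT1 was not matched to a cluster, the cluster of HSD17B7 carried a further symbol, and CYP51A1 had 2 clusters. All 30 genes reached a log2 signal of 6 on at least 2 arrays, the floor for testing, as did 16175 clusters in all. The list was drawn up with earlier results of these data known.

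The cells were HCC70 and MDA-MB-468, which are established cell lines grown from human breast cancers, and their RNA was measured on 16 arrays in 8 groups of 2. In HCC70 the groups carried scrambled shRNA (set a), shEZH2, scrambled shRNA again (set b), shEED, the empty vector plKO Puro, or an EZH2 cDNA labelled fip EZH2. In MDA-MB-468 they carried scrambled shRNA or shEZH2. All groups, controls included, had been infected with virus in the presence of polybrene, selected with puromycin and seeded at equal confluence before extraction. EZH2 is the histone methyltransferase of Polycomb repressive complex 2 and EED is a core subunit of that complex. For each target 1 shRNA label is given, and nothing states whether a line is 1 clone or whether duplicates were separate cultures. P-values therefore measure the spread between these samples, which may be technical. Each treatment had its own control by design; set a was taken as the control of shEZH2 and set b as that of shEED from the blocks in which the samples are coded, which the labels do not state outright. Both knockdowns are for that reason given against both sets.

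Sterol and fatty acid synthesis are governed by the sterol regulatory element-binding proteins (SREBPs), which are made as membrane proteins of the endoplasmic reticulum. When membrane cholesterol is low, the escort protein SCAP carries them to the Golgi, where proteases release the part that enters the nucleus and binds sterol regulatory elements in promoters. When cholesterol is plentiful, INSIG proteins hold SCAP back and the whole set of targets is transcribed less. The SREBP made from SREBF2 acts mostly on sterol genes and those made from SREBF1 mostly on fatty acid genes. Tumour cells, breast cancer cells among them, often depend on this synthesis for membranes.

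The promoters of 5 of the genes are printed because they hold letters like a sterol regulatory element, the site through which SREBPs act. They are RefSeq sequences of build GRCh38.p14, 150 bases each, read 5′ to 3′ on the strand of the gene. Capitals mark the sterol element-like match and each CCAAT or ATTGG, the letters of the CCAAT box bound by NF-Y on either strand. SREBF2 is shown at chr22:41832955-41833104 on the plus strand, INSIG1 at chr7:155297660-155297809 (plus), SCD at chr10:100347083-100347232 (plus), SC5D at chr11:121292702-121292851 (plus) and IDI1 at chr10:1048887-1049036 (minus). Each stretch ends at the base before the start site, except that of INSIG1, which runs from 218 to 69 bases before it.
SREBF2: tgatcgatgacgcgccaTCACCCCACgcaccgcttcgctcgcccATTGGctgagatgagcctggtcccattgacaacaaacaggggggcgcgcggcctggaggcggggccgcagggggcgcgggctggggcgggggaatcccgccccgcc
INSIG1: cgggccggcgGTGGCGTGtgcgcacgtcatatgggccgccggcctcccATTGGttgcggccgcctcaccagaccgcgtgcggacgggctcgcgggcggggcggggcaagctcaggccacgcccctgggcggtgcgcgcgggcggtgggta
SCD: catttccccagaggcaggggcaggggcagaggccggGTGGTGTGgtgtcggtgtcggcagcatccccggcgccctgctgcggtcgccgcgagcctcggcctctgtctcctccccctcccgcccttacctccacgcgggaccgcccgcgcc
SC5D: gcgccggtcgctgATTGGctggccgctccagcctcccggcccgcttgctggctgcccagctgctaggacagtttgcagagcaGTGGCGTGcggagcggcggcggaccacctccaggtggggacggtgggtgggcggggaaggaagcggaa
IDI1: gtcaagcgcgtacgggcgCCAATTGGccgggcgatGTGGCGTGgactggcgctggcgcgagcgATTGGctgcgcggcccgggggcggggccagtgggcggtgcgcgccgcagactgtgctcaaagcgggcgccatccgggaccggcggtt
The SREBF2 stretch holds the whole 9-letter form, TCACNCCAC, with its first base 133 bases before the start. The other 4 hold only the 8-letter form CACNCCAC, read on the opposite strand, which is the 9-letter form without its first base.

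Promoter windows of 250 bases before the start were found for 27 of the 30 genes; those of ACAT2, SQLE and FASN were not in the table. On either strand, the 9-letter form stood before 1 of the 27 genes (3.704%) and before 1.088% of 27305 genes in the table. The 8-letter form stood before 6 of the 27 (22.222%), ACACA being the other one, and before 5.885% of all genes; it was chosen after the 9-letter search and after 7 looser forms had been looked at. CCAAT was found before 19 of the 27 genes (70.37%) against 36.997% of all, and the GC box GGGCGG before 26 (96.296%) against 46.237%. All genes of the table served as background, not only those tested here, and a gene counted if any of its windows matched. Per window the shares were 58.974% against 32.008% for CCAAT and 87.179% against 42.639% for the GC box. These are matches of letters, and binding was not measured.

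Array medians of the log2 signals made by RMA ran from 5.37 to 5.53, and the duplicates of a group correlated at r = 0.9935 to 0.9975 across clusters. An array gives no read depth, and 2 arrays per group limit the precision. EZH2 fell in both lines with shEZH2, by 1.47 ± 0.071 on the log2 scale in HCC70 against set a and by 1.67 ± 0.071 in MDA-MB-468 (limma adjusted p = 3.35e-07 and 2.56e-07). EED fell by 0.82 ± 0.11 with shEED against set b (adjusted p = 0.000347). With EZH2 cDNA the EZH2 signal was 0.29 higher than with plKO Puro and did not pass the threshold (adjusted p = 0.0961). The 8 epithelial and breast markers checked, EPCAM, CDH1, EGFR and 5 keratins, read at least 8.59 on every array. Of 10 markers of blood, endothelial, stromal and fat cells, 9 lay between 3.04 and 5.59 on all arrays, and the collagen gene COL1A1 between 6.29 and 7.56. Each change below is the treated mean less the control mean, on the log2 scale, ± the fit's standard error (n = 2 arrays per group), and "lower" or "higher" in a count means an adjusted p under 0.05.

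In HCC70 the genes that changed in the knockdowns were mostly lower, and how many passed the test depended on the scrambled set they were read against. With shEZH2, 8 of 30 genes were lower against set a and 21 against set b, and 0 were higher against either. Of all clusters, 4.06% were lower and 7.30% higher against set a, and 15.4% and 11.3% against set b. The 8 against set a became 1 if the first array of set a was left out, 4 if its second was, 5 without shEZH2 replicate 2, and 0 when the 4 arrays compared were fitted alone. With shEED, 23 were lower and 0 higher against set b, where 7.53% and 6.63% of all clusters were; against set a 14 were lower and 4 higher, where 13.9% and 22.8% were. Against both sets alike, 8 genes were lower with shEZH2 (ACAT2, CYP51A1, TM7SF2, EBP, DHCR7, FASN, ACLY and ACSS2). With shEED 14 were, of which 11 were sterol enzymes. Of all clusters 2.57% were lower against both sets with shEZH2 and 4.74% with shEED, and 3.72% and 4.90% were higher, where 0 of the 30 genes were with either. The 2 readings of a knockdown share its treated arrays and are not independent. In bulk RNA, fewer cells expressing a gene and less RNA per cell cannot be told apart.

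Without fitting a model, both shEZH2 arrays lay below all 4 scrambled arrays in 19 of 30 genes, where 14.7% of all clusters did, and above them in 0, where 15.5% did. Both shEED arrays lay below all 4 in 19 genes, where 19.1% of clusters did, and above in 2, FADS1 and ELOVL6, where 26.3% did. Of the 19 genes, 12 were sterol enzymes with shEZH2 and 13 with shEED. Fatty acid genes made up 5 and 4, and the regulators 2 each (INSIG1 and SREBF2 with shEZH2, INSIG1 and SREBF1 with shEED).

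**Figure D1:**
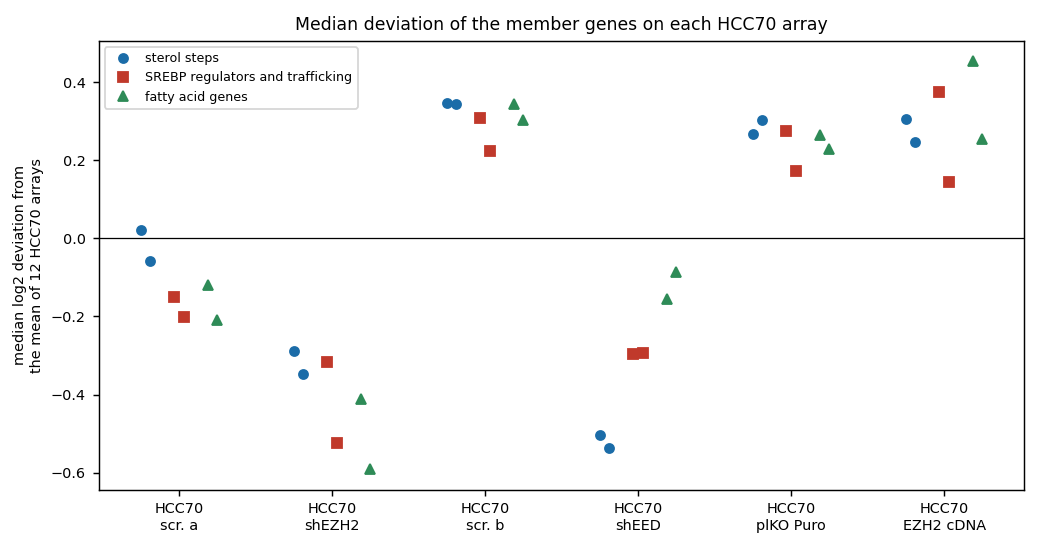
Median deviation, in log2 units, of the 16 sterol enzymes, 5 regulators and 9 fatty acid genes on each of the 12 HCC70 arrays from each gene's mean over those arrays. Each point is 1 array; the sterol enzymes sit from -0.54 to -0.29 on the 4 knockdown arrays, near 0 in scrambled set a, and from 0.25 to 0.35 in set b and on the vector and cDNA arrays.

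The early sterol steps turn acetyl-CoA into farnesyl diphosphate. HMGCS1, which makes the precursor of mevalonate (cluster 8111941), read 9.70 and 9.73 in set a, 9.22 and 9.29 with shEZH2, 10.61 and 10.60 in set b and 8.96 and 9.08 with shEED. It read 10.71 and 10.42 with plKO Puro and 10.69 and 10.80 with EZH2 cDNA, and in MDA-MB-468 9.49 and 9.49 with scrambled shRNA and 8.996 and 9.66 with shEZH2. In HCC70 the 4 knockdown arrays were the lowest, set a lay between, and set b, the vector and the cDNA arrays were above set a. HMGCS1 fell by 1.58 ± 0.17 (3.0-fold) with shEED against set b (adjusted p = 7.56e-05) and by 0.70 ± 0.17 against set a (0.00667). With shEZH2 it fell by 1.35 ± 0.17 against set b (adjusted p = 0.000141), and against set a the change was -0.46 ± 0.17 (adjusted p = 0.0998).

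ACAT2, the thiolase that joins acetyl-CoA units (cluster 8123137), read 10.04 and 9.91 in set a, 9.48 and 9.71 with shEZH2, 10.30 and 10.32 in set b and 9.53 and 9.67 with shEED. The remaining arrays gave 10.12 and 10.13 with plKO Puro and 10.26 and 10.19 with EZH2 cDNA, and in MDA-MB-468 9.79 and 9.77 with scrambled shRNA and 9.52 and 9.44 with shEZH2. All 4 knockdown arrays of HCC70 lay below all other HCC70 arrays, and the 2 knockdowns overlapped. ACAT2 fell by 0.37 ± 0.09 and 0.71 ± 0.09 with shEZH2 (sets a and b, adjusted p = 0.0204 and 0.000171) and by 0.70 ± 0.09 and 0.37 ± 0.09 with shEED (sets b and a, 0.000327 and 0.00715). The set a calls ended without set a replicate 1, among other arrays.

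MVD, which decarboxylates mevalonate diphosphate (cluster 8003332), read 9.27 and 9.09 in set a, 8.90 and 8.62 with shEZH2, 9.67 and 9.55 in set b and 8.38 and 8.38 with shEED. It gave 9.43 and 9.48 with plKO Puro and 9.75 and 9.47 with EZH2 cDNA, and in MDA-MB-468 8.82 and 8.69 with scrambled shRNA and 8.79 and 8.48 with shEZH2. The shEED arrays were the lowest and did not overlap those with shEZH2. MVD fell with shEED by 1.23 ± 0.13 against set b and 0.80 ± 0.13 against set a (adjusted p = 7.78e-05 and 0.00062). With shEZH2 it fell by 0.85 ± 0.13 against set b (adjusted p = 0.000617), and against set a the change of -0.42 missed the threshold (0.0582).

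MVK, the kinase that phosphorylates mevalonate (cluster 7958565), read 7.46 and 7.35 in set a, 7.18 and 6.95 with shEZH2, 7.42 and 7.39 in set b and 6.79 and 6.66 with shEED. Its other arrays gave 7.61 and 7.40 with plKO Puro and 7.61 and 7.33 with EZH2 cDNA, and in MDA-MB-468 7.05 and 7.02 with scrambled shRNA and 7.19 and 7.41 with shEZH2. Its mean was nearly the same in both sets, and so were its changes against them. It fell by 0.68 ± 0.12 and 0.68 ± 0.12 with shEED (adjusted p = 0.00298 and 0.00119) and changed by -0.33 and -0.34 with shEZH2 (0.104 and 0.0599). PMVK, the kinase of the next step, was not called in any of these readings (at most 0.092, with shEZH2 against set b).

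FDPS, which makes farnesyl diphosphate (cluster 7905986), read 10.26 and 10.30 in set a, 10.17 and 10.17 with shEZH2, 10.80 and 10.79 in set b and 10.46 and 10.53 with shEED. It read 10.76 and 10.80 with plKO Puro and 10.73 and 10.57 with EZH2 cDNA, and in MDA-MB-468 10.26 and 10.16 with scrambled shRNA and 10.10 and 10.06 with shEZH2. The shEED arrays stood between the 2 scrambled sets. FDPS was thus lower by 0.30 ± 0.075 against set b and higher by 0.21 ± 0.075 against set a (adjusted p = 0.02 and 0.0437), and both calls ended without any 1 of the 4 arrays compared. With shEZH2 it fell by 0.63 ± 0.075 against set b (adjusted p = 0.000121) and changed by -0.11 against set a (0.382).

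IDI1, the isomerase that sets the ratio of the isoprenoid units (cluster 7931754; promoter printed above), read 10.83 and 10.84 in set a, 11.01 and 10.84 with shEZH2, 11.37 and 11.24 in set b and 10.67 and 10.93 with shEED. It gave 11.21 and 11.34 with plKO Puro and 11.20 and 11.22 with EZH2 cDNA, and in MDA-MB-468 10.39 and 10.72 with scrambled shRNA and 10.18 and 10.47 with shEZH2. Set b, the vector and the cDNA arrays were above set a and the knockdowns, which overlapped. Its only call in the 4 knockdown readings was the fall of 0.50 ± 0.13 with shEED against set b (adjusted p = 0.0264), lost without set b replicate 1 or 2 or shEED replicate 1.

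The later sterol steps turn squalene into cholesterol. MSMO1, a monooxygenase that acts on methyl groups of the sterol ring (cluster 8098195), read 10.97 and 10.96 in set a, 10.59 and 10.64 with shEZH2, 11.17 and 11.16 in set b and 9.53 and 9.76 with shEED. It read 11.08 and 11.32 with plKO Puro and 11.09 and 11.15 with EZH2 cDNA, and in MDA-MB-468 9.74 and 10.04 with scrambled shRNA and 9.42 and 9.90 with shEZH2. The shEED arrays were lowest, and those with shEZH2 lay between them and set a. MSMO1 fell by 1.52 ± 0.15 against set b (2.86-fold, adjusted p = 4.71e-05) and by 1.32 ± 0.15 against set a (2.5-fold, 5.27e-05). With shEZH2 the changes were -0.55 ± 0.15 against set b (adjusted p = 0.0181, lost without any 1 of the 4 arrays) and -0.35 ± 0.15 against set a (0.156). The direct difference, shEED minus shEZH2, was -0.97 ± 0.15 (adjusted p = 0.000557), the largest among the sterol enzymes.

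TM7SF2, a sterol reductase (cluster 7941148), read 7.79 and 7.73 in set a, 7.33 and 7.16 with shEZH2, 8.29 and 8.12 in set b and 6.90 and 6.85 with shEED. Its other arrays gave 8.31 and 8.11 with plKO Puro and 8.41 and 8.31 with EZH2 cDNA, and in MDA-MB-468 7.15 and 6.92 with scrambled shRNA and 6.83 and 6.82 with shEZH2. The order rose from shEED through shEZH2 and set a to the remaining HCC70 groups, and only the last overlapped among themselves. TM7SF2 fell in all 4 readings, by 0.52 ± 0.10 and 0.96 ± 0.10 with shEZH2 (sets a and b) and by 0.89 ± 0.10 and 1.33 ± 0.10 with shEED (adjusted p = 0.00861, 5.67e-05, 7.19e-05 and 7.98e-06). The call with shEZH2 against set a ended without set a replicate 1.

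DHCR7, the reductase that completes cholesterol (cluster 7950067), read 10.98 and 10.86 in set a, 10.57 and 10.38 with shEZH2, 11.44 and 11.42 in set b and 10.31 and 10.36 with shEED. It gave 11.23 and 11.31 with plKO Puro and 11.37 and 11.26 with EZH2 cDNA, and in MDA-MB-468 10.92 and 10.79 with scrambled shRNA and 10.79 and 10.69 with shEZH2. Both knockdowns lay below every other HCC70 array, and shEED lay just below shEZH2. DHCR7 fell in all 4 readings, from -0.45 ± 0.089 with shEZH2 against set a (adjusted p = 0.00803) to -1.09 ± 0.089 with shEED against set b (1.11e-05). The first of these calls ended without set a replicate 1.

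CYP51A1, the lanosterol demethylase (cluster 8180268), read 11.11 and 11.07 in set a, 10.86 and 10.65 with shEZH2, 11.60 and 11.59 in set b and 10.55 and 10.64 with shEED. It read 11.44 and 11.47 with plKO Puro and 11.55 and 11.52 with EZH2 cDNA, and in MDA-MB-468 10.10 and 10.12 with scrambled shRNA and 9.72 and 9.98 with shEZH2. The 4 knockdown arrays were again the lowest in HCC70. It fell by 0.33 ± 0.10 and 0.84 ± 0.10 with shEZH2 (sets a and b, adjusted p = 0.044 and 7.44e-05) and by 0.49 ± 0.10 and 1.0 ± 0.10 with shEED (0.00195 and 3.74e-05). The shEZH2 call against set a ended without either set a array or without shEZH2 replicate 2. It also ended with the mean of the gene's 2 clusters (-0.417, limma adjusted p = 0.055), with no floor, with arrays centred on their medians and with a replicate block.

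SQLE, the squalene epoxidase (cluster 8148280), read 11.27 and 11.22 in set a, 11.06 and 10.88 with shEZH2, 11.62 and 11.61 in set b and 10.47 and 10.59 with shEED. It gave 11.55 and 11.64 with plKO Puro and 11.55 and 11.53 with EZH2 cDNA, and in MDA-MB-468 9.54 and 9.64 with scrambled shRNA and 9.17 and 9.42 with shEZH2. The shEED arrays were below those with shEZH2, which were below set a. SQLE fell by 1.08 ± 0.10 and 0.71 ± 0.10 with shEED (sets b and a, adjusted p = 2.43e-05 and 0.000192). With shEZH2 it fell by 0.65 ± 0.10 against set b (0.000564), while against set a the change was -0.28 (0.0893).

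LSS, the lanosterol synthase (cluster 8070961), read 8.33 and 8.41 in set a, 8.18 and 7.94 with shEZH2, 9.28 and 9.27 in set b and 8.18 and 8.14 with shEED. Its other arrays gave 9.09 and 8.99 with plKO Puro and 9.22 and 9.10 with EZH2 cDNA, and in MDA-MB-468 8.40 and 8.35 with scrambled shRNA and 8.35 and 8.22 with shEZH2. Here set a lay just above the knockdowns and set b was the highest group. LSS fell by 1.21 ± 0.092 and 1.11 ± 0.092 against set b (adjusted p = 3.29e-06 and 1.18e-05), and against set a the changes of -0.31 and -0.21 did not pass (0.0509 and 0.0893). Set b exceeded set a by 0.90 ± 0.092 (adjusted p = 5.36e-05).

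NSDHL, a sterol dehydrogenase (cluster 8170590), read 9.76 and 9.67 in set a, 9.81 and 9.79 with shEZH2, 9.85 and 9.82 in set b and 9.25 and 9.34 with shEED. It read 9.77 and 9.82 with plKO Puro and 9.84 and 9.78 with EZH2 cDNA, and in MDA-MB-468 10.01 and 10.08 with scrambled shRNA and 9.95 and 10.05 with shEZH2. It was low on the shEED arrays alone among the HCC70 groups. NSDHL fell by 0.54 ± 0.073 and 0.42 ± 0.073 with shEED (sets b and a, adjusted p = 0.000464 and 0.00093), changed by -0.035 and 0.084 with shEZH2 (0.751 and 0.504), and differed between the knockdowns by -0.51 ± 0.073 (0.000357).

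SC5D, a sterol desaturase (cluster 7944656; promoter printed above), read 9.74 and 9.76 in set a, 9.85 and 9.75 with shEZH2, 10.04 and 10.03 in set b and 9.30 and 9.42 with shEED. It gave 9.92 and 10.15 with plKO Puro and 9.87 and 9.87 with EZH2 cDNA, and in MDA-MB-468 10.12 and 10.36 with scrambled shRNA and 9.84 and 10.17 with shEZH2. As with NSDHL, the shEED arrays stood alone below the rest of HCC70. SC5D fell by 0.67 ± 0.12 against set b and 0.39 ± 0.12 against set a (adjusted p = 0.00264 and 0.023, the second lost without any 1 of the 4 arrays); with shEZH2 the changes were -0.23 and 0.053 (0.163 and 0.82). The direct difference between knockdowns was -0.44 ± 0.12 (adjusted p = 0.0141), lost without shEZH2 replicate 1 or shEED replicate 1.

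EBP, a sterol isomerase (cluster 8167305), read 10.07 and 10.002 in set a, 9.70 and 9.69 with shEZH2, 10.22 and 10.23 in set b and 9.90 and 9.79 with shEED. It read 10.29 and 10.19 with plKO Puro and 10.16 and 10.07 with EZH2 cDNA, and in MDA-MB-468 10.27 and 10.003 with scrambled shRNA and 9.91 and 9.89 with shEZH2. Its shEZH2 arrays were the lowest of HCC70, below those with shEED. EBP fell by 0.53 ± 0.091 with shEZH2 against set b (adjusted p = 0.00132) and by 0.34 ± 0.091 against set a (0.0309). With shEED it fell by 0.38 ± 0.091 against set b (0.0154) and changed by -0.19 against set a (0.115). The set a call with shEZH2 ended without any 1 of the 4 arrays, and the set b call with shEED without either set b array or shEED replicate 2.

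In counts, 5 of 16 sterol enzymes fell with shEZH2 against set a (median change of the 16, -0.33) and 11 against set b (-0.64). With shEED 15 fell against set b (-0.85), and against set a 11 fell and FDPS rose (-0.46). The medians of all tested clusters lay between 0.0026 and 0.033 in these 4 readings. The shares of all clusters that fell were 4.06%, 15.4%, 7.53% and 13.9%, in the same order, and 22.8% rose with shEED against set a.

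**Figure D2:**
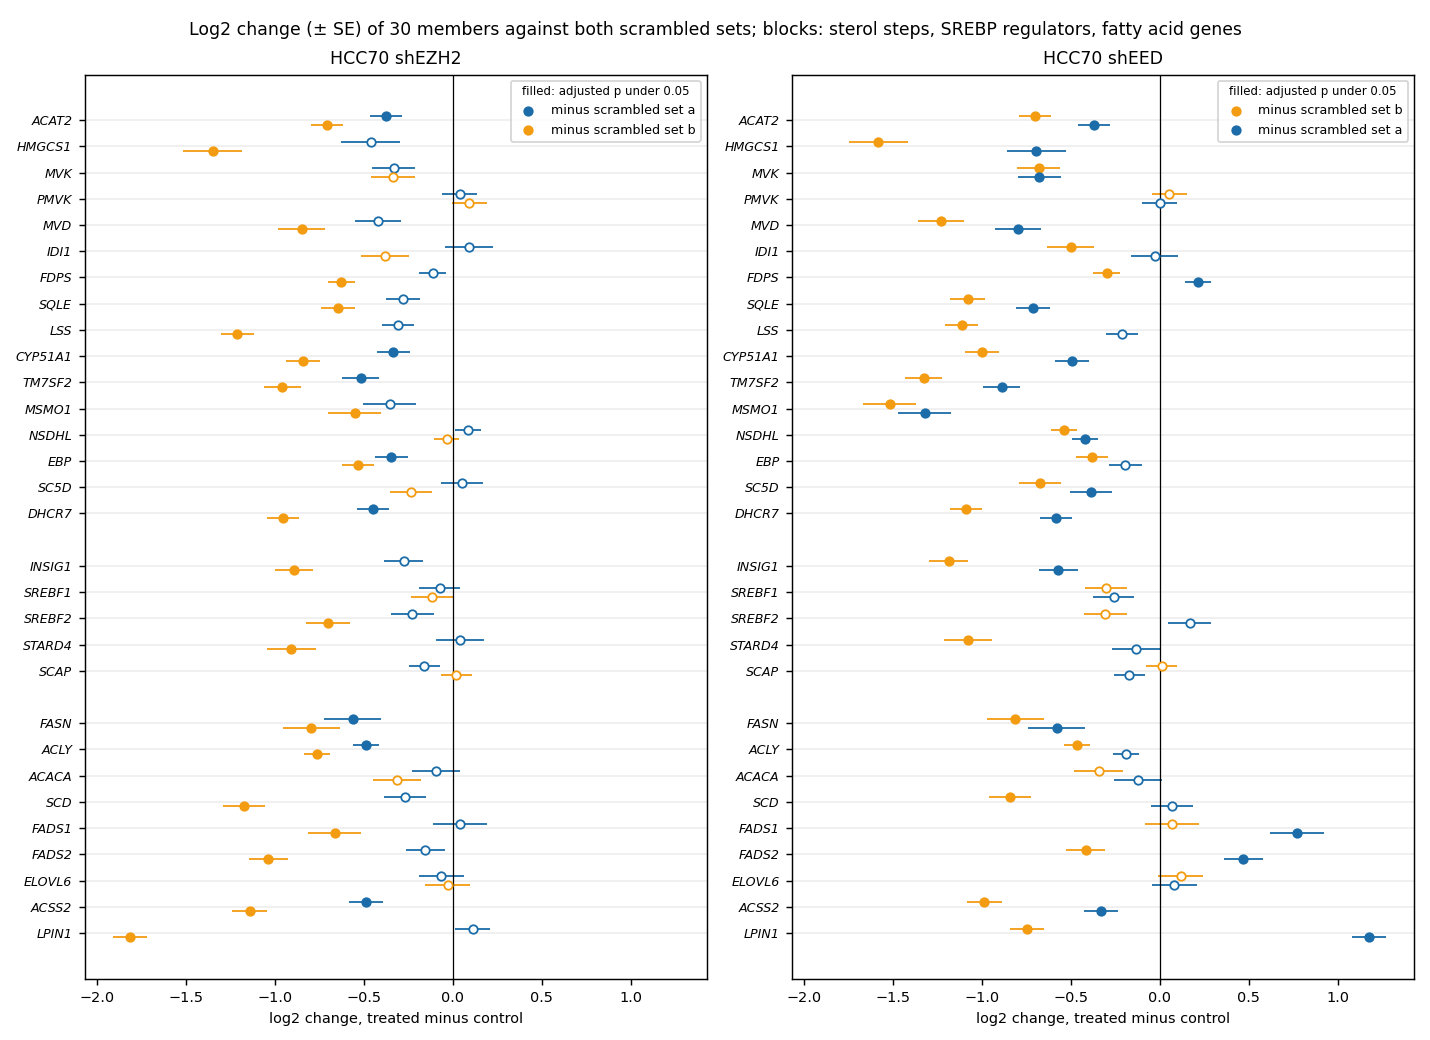
Log2 change ± SE of each of the 30 genes with shEZH2 (left) and shEED (right) in HCC70, against scrambled set a (blue) and set b (orange); filled points passed an adjusted p of 0.05. Most orange points lie left of the blue ones; LPIN1 with shEED is at -0.75 against set b and at 1.17 against set a.

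Of the regulators, INSIG1, which holds the SREBP escort in the endoplasmic reticulum and is itself an SREBP target (cluster 8137526; promoter printed above), read 9.32 and 9.19 in set a, 9.10 and 8.86 with shEZH2, 9.97 and 9.78 in set b and 8.60 and 8.78 with shEED. It read 10.003 and 9.92 with plKO Puro and 10.12 and 10.02 with EZH2 cDNA, and in MDA-MB-468 8.18 and 8.17 with scrambled shRNA and 8.09 and 7.91 with shEZH2. In HCC70 its arrays rose from shEED through shEZH2 and set a to the remaining groups, as those of TM7SF2 did. Not every sterol enzyme followed that order. INSIG1 fell by 1.19 ± 0.11 with shEED against set b (2.28-fold, adjusted p = 2.74e-05), by 0.57 ± 0.11 against set a (0.00172) and by 0.89 ± 0.11 with shEZH2 against set b (0.000128). Against set a the shEZH2 change was -0.28 ± 0.11 (adjusted p = 0.129).

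STARD4, which carries cholesterol between membranes (cluster 8113491), read 6.48 and 6.38 in set a, 6.61 and 6.33 with shEZH2, 7.44 and 7.32 in set b and 6.21 and 6.39 with shEED. It gave 7.49 and 7.54 with plKO Puro and 7.44 and 7.47 with EZH2 cDNA, and in MDA-MB-468 7.97 and 8.11 with scrambled shRNA and 8.10 and 8.53 with shEZH2. Set a overlapped both knockdowns, and the remaining HCC70 groups were all higher. STARD4 fell by 0.91 ± 0.14 and 1.08 ± 0.14 against set b (adjusted p = 0.000534 and 0.000295) and changed by 0.039 and -0.13 against set a (0.89 and 0.467). Set b exceeded set a by 0.95 ± 0.14 (0.000565).

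SREBF2, whose promoter holds the 9-letter match, had group means of 9.61 in set a, 9.39 with shEZH2, 10.09 in set b and 9.78 with shEED. It fell with shEZH2 against set b by 0.70 ± 0.12 (adjusted p = 0.00147); its changes with shEED were -0.31 against set b (0.124) and 0.17 against set a (0.305), and with shEZH2 against set a -0.23 (0.269). SREBF1, the gene of the other SREBPs, had means from 7.23 with shEED to 7.54 in set b over these 4 groups and was not called in any of the 4 readings (-0.31 with shEED against set b, adjusted p = 0.112). SCAP, the escort, changed by between -0.17 and 0.02 and was not called either. Of the 5 regulators, 0 passed with shEZH2 against set a (1 at an unadjusted p under 0.05), 3 against set b, and with shEED 2 against set b and 1 against set a, all of them lower. Among all clusters the lower shares in these readings were 4.06%, 15.4%, 7.53% and 13.9%, in that order. Protein processing of the SREBPs was not measured.

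Among the fatty acid genes, ACSS2 and FASN fell in all 4 knockdown readings and ACLY in 3, while FADS2 and LPIN1 with shEED were lower against set b and higher against set a. ACSS2, which makes acetyl-CoA from acetate (cluster 8062041), read 8.77 and 8.68 in set a, 8.21 and 8.26 with shEZH2, 9.36 and 9.40 in set b and 8.43 and 8.36 with shEED. It read 9.43 and 9.15 with plKO Puro and 9.37 and 9.25 with EZH2 cDNA, and in MDA-MB-468 9.49 and 9.62 with scrambled shRNA and 9.61 and 9.54 with shEZH2. Both knockdowns lay below every other HCC70 array. ACSS2 fell by 0.49 ± 0.10 and 1.14 ± 0.10 with shEZH2 (sets a and b, adjusted p = 0.00796 and 8.46e-06) and by 0.99 ± 0.10 and 0.33 ± 0.10 with shEED (sets b and a, 4.71e-05 and 0.0191). Both set a calls ended without set a replicate 1, and that with shEED also without either shEED array.

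ACLY, which makes acetyl-CoA from citrate (cluster 8015460), read 10.03 and 10.05 in set a, 9.58 and 9.52 with shEZH2, 10.33 and 10.29 in set b and 9.85 and 9.84 with shEED. It gave 9.93 and 10.05 with plKO Puro and 10.25 and 10.15 with EZH2 cDNA, and in MDA-MB-468 10.42 and 10.32 with scrambled shRNA and 9.91 and 9.87 with shEZH2. It was lowest with shEZH2 in both lines. ACLY fell by 0.49 ± 0.074 with shEZH2 against set a (adjusted p = 0.00159), the only call among these genes in that comparison that held without each array in turn, and by 0.76 ± 0.074 against set b (2.43e-05). With shEED it fell by 0.47 ± 0.074 against set b (0.00152) and changed by -0.19 against set a (0.0646).

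FASN, the fatty acid synthase (cluster 8019392), read 8.80 and 8.84 in set a, 8.35 and 8.17 with shEZH2, 9.06 and 9.05 in set b and 8.22 and 8.27 with shEED. It read 9.02 and 8.96 with plKO Puro and 9.24 and 9.15 with EZH2 cDNA, and in MDA-MB-468 9.02 and 8.97 with scrambled shRNA and 9.36 and 8.69 with shEZH2. The knockdowns overlapped and lay below all other HCC70 arrays. FASN fell by 0.56 ± 0.16 and 0.79 ± 0.16 with shEZH2 (sets a and b, adjusted p = 0.0421 and 0.00348) and by 0.81 ± 0.16 and 0.58 ± 0.16 with shEED (sets b and a, 0.00515 and 0.0141). Both set a calls ended without any 1 of their 4 arrays. ACACA, which makes malonyl-CoA for FASN, changed by -0.094 to -0.35 and was not called.

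SCD, which puts the double bond into saturated fatty acids (cluster 7929816; promoter printed above), read 10.28 and 10.16 in set a, 10.12 and 9.79 with shEZH2, 11.14 and 11.13 in set b and 10.18 and 10.39 with shEED. It gave 11.24 and 11.32 with plKO Puro and 11.33 and 11.09 with EZH2 cDNA, and in MDA-MB-468 9.51 and 9.56 with scrambled shRNA and 9.03 and 9.07 with shEZH2. Set a overlapped the shEED arrays, the shEZH2 arrays lay below both, and set b, the vector and the cDNA arrays were higher. SCD fell by 1.18 ± 0.12 with shEZH2 and 0.84 ± 0.12 with shEED against set b (adjusted p = 2.95e-05 and 0.000606), and changed by -0.27 and 0.066 against set a (0.176 and 0.692).

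FADS2, a desaturase of polyunsaturated fatty acids (cluster 7940565), read 9.59 and 9.60 in set a, 9.59 and 9.29 with shEZH2, 10.49 and 10.47 in set b and 10.03 and 10.09 with shEED. It read 10.51 and 10.57 with plKO Puro and 10.55 and 10.35 with EZH2 cDNA, and in MDA-MB-468 4.52 and 4.45 with scrambled shRNA and 4.33 and 4.57 with shEZH2. The shEED arrays lay between the scrambled sets. FADS2 was lower by 0.42 ± 0.11 with shEED against set b (adjusted p = 0.0246, lost without any 1 of the 4 arrays) and higher by 0.47 ± 0.11 against set a (0.00594). With shEZH2 it fell by 1.04 ± 0.11 against set b (4.29e-05) and changed by -0.15 against set a (0.411). FADS1, its partner enzyme, rose by 0.77 ± 0.15 with shEED against set a (0.00209), fell by 0.66 ± 0.15 with shEZH2 against set b (0.00727), a call lost without shEZH2 replicate 2 or set b replicate 1, and changed by 0.068 and 0.04 in the other readings (0.838 and 0.9).

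LPIN1, the phosphatase that makes diacylglycerol (cluster 8040340), read 7.45 and 7.41 in set a, 7.63 and 7.45 with shEZH2, 9.41 and 9.29 in set b and 8.46 and 8.74 with shEED. It read 9.22 and 9.28 with plKO Puro and 9.54 and 9.53 with EZH2 cDNA, and in MDA-MB-468 7.85 and 7.88 with scrambled shRNA and 8.11 and 8.09 with shEZH2. Set a was lowest, shEZH2 lay just above it and shEED above both, and the vector, set b and cDNA arrays were highest, with no overlap between groups. LPIN1 fell by 1.81 ± 0.10 with shEZH2 against set b (3.51-fold, adjusted p = 2.21e-07) and changed by 0.11 against set a (0.505). With shEED it fell by 0.75 ± 0.10 against set b (0.000349) and rose by 1.17 ± 0.10 against set a (2.26-fold, 5.18e-06). Its difference between the sets, 1.92 ± 0.10 (3.79-fold, 4.24e-07), exceeded each of its 4 knockdown changes. ELOVL6, which lengthens palmitate, changed by -0.064 to 0.12 over the 4 readings and was not called there.

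In counts, 3 of 9 fatty acid genes fell with shEZH2 against set a (median change -0.15) and 7 against set b (-0.79). With shEED 6 fell against set b (-0.47), and against set a 2 fell and 3 rose (0.066). Of all clusters, 4.06%, 15.4%, 7.53% and 13.9% fell in these readings, in the order given, and 22.8% rose with shEED against set a.

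**Figure D3:**
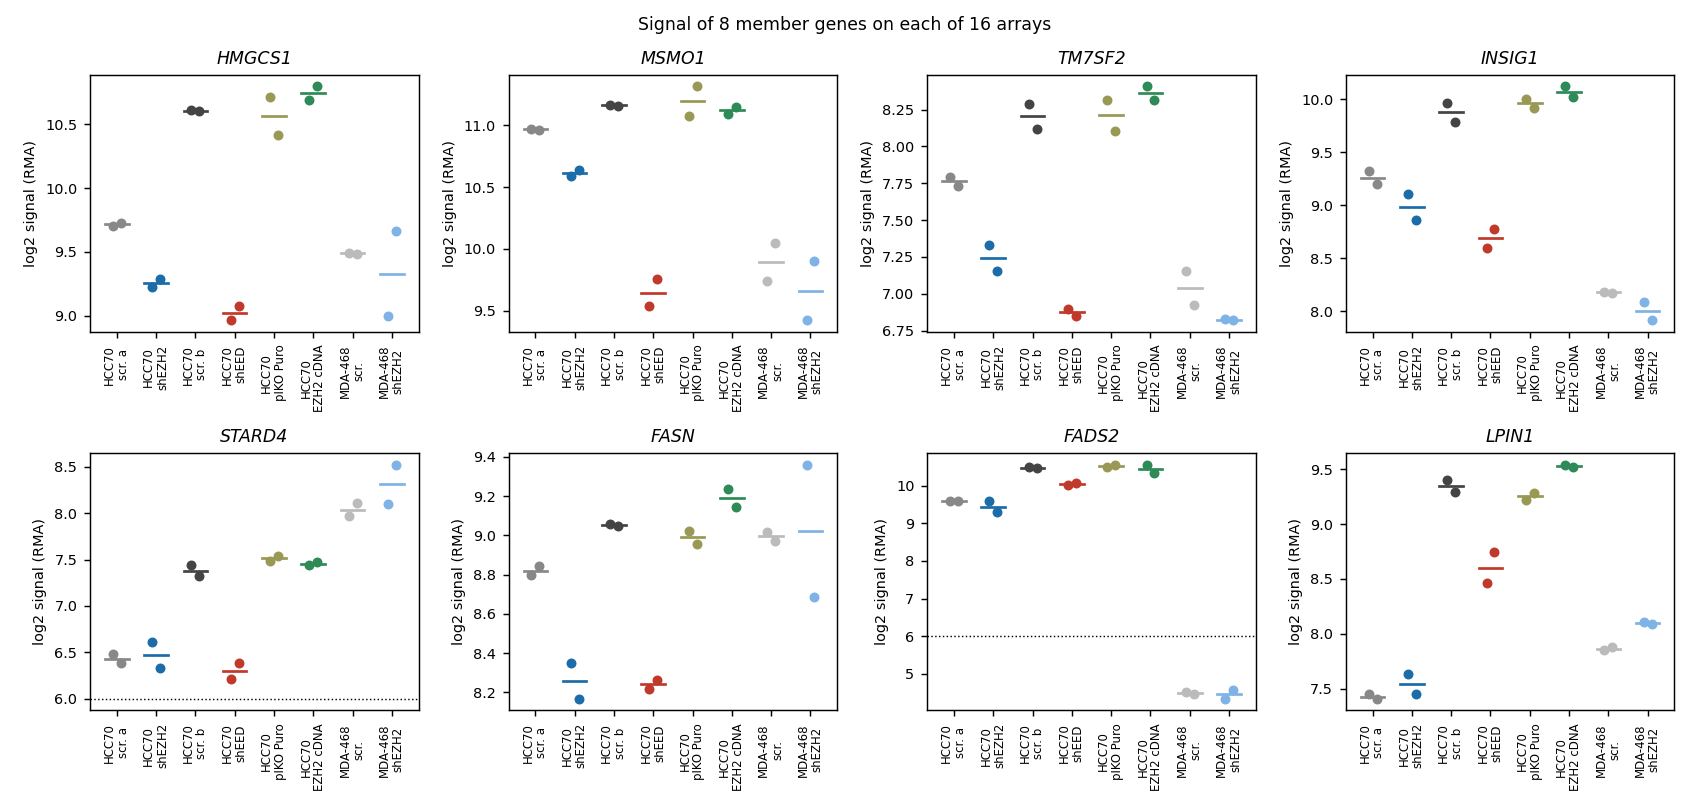
Log2 signal of 8 of the genes on each of the 16 arrays, by group; points are arrays, bars are the means of 2 arrays, and the dotted line marks the floor of 6. HMGCS1, MSMO1, TM7SF2 and INSIG1 are lowest in HCC70 with shEED, STARD4 and LPIN1 are as low in set a as with shEZH2, and FADS2 lies below the floor in MDA-MB-468.

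The 2 scrambled sets of HCC70 carry the same label and can be compared directly. Set b was higher than set a in 19 of the 30 genes and lower in 0, where 15.3% of all clusters were higher and 7.41% lower. They were 10 sterol enzymes, 3 regulators and 6 fatty acid genes, and the median difference was 0.44 over the 30 genes and 0.012 over all clusters. The count fell to 11 without set a replicate 2 or set b replicate 1. LPIN1, STARD4, SCD (0.91 ± 0.12), LSS, HMGCS1 (0.89 ± 0.17) and FADS2 (0.88 ± 0.11) differed most. The plKO Puro arrays, which carry no shRNA, lay nearer to set b than to set a in 26 of the 30 genes. The median difference was 0.35 from set a and -0.038 from set b, and this was not tested. The same count was not made over all clusters, so it is not read as a trait of these genes. KRT14, a basal keratin, was lower in set b than in set a by 0.74 ± 0.087 (adjusted p = 0.000146) and EED by 0.38 ± 0.11 (0.0219); the part of such differences between the control sets in the counts above was not tested.

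The knockdowns were also compared directly. They come from different blocks of samples, each with its own scrambled set, so a difference between knockdowns and one between blocks cannot be told apart. Of 16 sterol enzymes 7 were lower with shEED and FDPS was higher, 5 of 9 fatty acid genes were higher, and SREBF2 was higher by 0.39 ± 0.12 (adjusted p = 0.0281). That made 7 higher and 7 lower of 30, where 18.8% and 13.1% of all clusters were; with arrays centred on their medians the split was 7 and 3, and MVK, MVD, TM7SF2 and SC5D were no longer called. Without shEED replicate 1 the count was 6 in all, and without shEED replicate 2 it was 7. MSMO1, NSDHL, FADS1 (0.73 ± 0.15), FADS2 (0.62 ± 0.11) and LPIN1 (1.06 ± 0.10, 2.09-fold) kept their calls without each of the 4 arrays in turn. The lower sterol enzymes also included SQLE (-0.43, adjusted p = 0.00541), MVD (-0.38, 0.0421), MVK (-0.35, 0.0475) and TM7SF2 (-0.37, 0.0184). HMGCS1 (-0.23 ± 0.17, adjusted p = 0.298) and DHCR7 (-0.14 ± 0.089, 0.256) did not pass.

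The difference between the knockdowns and the difference between the control sets share no arrays. Across the 30 genes they correlated at r = 0.541, with r = 0.852 over the 9 fatty acid genes, 0.292 over the 16 sterol enzymes and -0.125 over the 5 regulators. The correlation over all clusters was not computed, so these values are not read as particular to the list. Genes are not independent and the samples of a block may share their handling, so these are descriptions. The 5 fatty acid genes that were higher with shEED, ACLY, SCD, FADS1, FADS2 and LPIN1, were also higher in set b. Of the 7 sterol enzymes that were lower with shEED, 3 (MVD, SQLE and TM7SF2) were higher in set b and 4 (MVK, MSMO1, NSDHL and SC5D) did not pass between the sets.

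**Figure D4:**
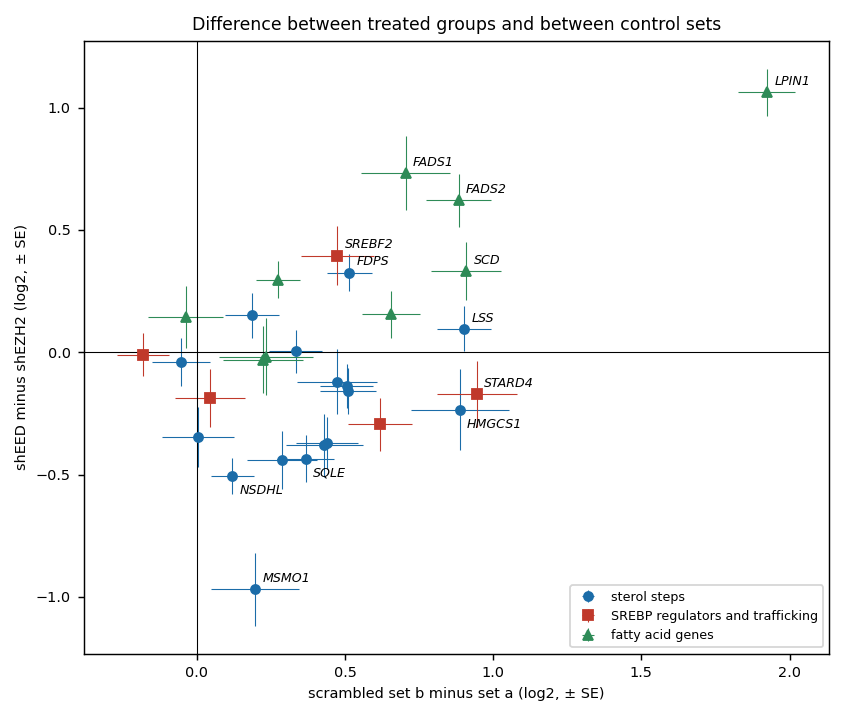
Difference between the 2 knockdowns of HCC70 (shEED minus shEZH2) against the difference between the 2 scrambled sets (b minus a), log2 units ± SE, for each of the 30 genes. LPIN1, FADS2, FADS1 and SCD lie to the upper right, while MSMO1 at -0.97 lies low with a set difference of 0.20.

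With EZH2 cDNA no gene of the list passed the threshold. Against plKO Puro 0 of 30 genes were higher and 0 lower by limma, where 0.909% and 0.0680% of all clusters were; at an unadjusted p under 0.05, 2 were higher (ACLY and LPIN1) and 0 lower. The largest changes were LPIN1 at 0.28 ± 0.10 (adjusted p = 0.281), FADS1 at -0.23 ± 0.15 (0.668), ACLY at 0.21 ± 0.074 (0.305), FASN at 0.20 ± 0.16 (0.746) and HMGCS1 at 0.18 ± 0.17 (0.796). The next were SC5D at -0.17 ± 0.12 (0.712), MVD at 0.16 ± 0.13 (0.762) and TM7SF2 at 0.15 ± 0.10 (0.701). The median over the 30 genes was 0.034, against 0.022 over all clusters. EZH2 itself had not passed the threshold in this pair of groups, as given above.

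With shEZH2 in MDA-MB-468, 3 genes were called lower, the fatty acid genes ELOVL6, ACLY and SCD, and 0 were higher. Only the call of ACLY held without each array in turn, and ELOVL6 passed the floor for testing only through its HCC70 arrays. Of all clusters 5.57% were lower and 2.73% higher. ELOVL6 (cluster 8102342) read 5.74 and 5.98 with scrambled shRNA and 5.05 and 5.23 with shEZH2, against 7.47 and 7.59 in set a, 7.68 and 7.26 with shEZH2, 7.51 and 7.48 in set b and 7.59 and 7.63 with shEED and 7.61 and 7.62 with plKO Puro and 7.57 and 7.65 with EZH2 cDNA in HCC70. It was called lower (adjusted p = 0.00697), a call lost without scrambled replicate 2, but lay below the floor on all 4 MDA-MB-468 arrays, so no size is given. ACLY fell by 0.48 ± 0.074 (0.00392) and kept its call without each array in turn, and SCD fell by 0.49 ± 0.12 (0.0293), a call lost without any 1 of the 4.

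Of the 16 sterol enzymes 0 passed there by limma (4 were lower and 1 higher at an unadjusted p under 0.05). A change below 0 was found in 14 of the 16, and in 8793 of all 16175 tested clusters. The median of the 16 was -0.19 against -0.021 over all clusters. For counts at an unadjusted p, here and elsewhere, the share over all clusters was not computed, so they are not read as results. ACAT2 changed by -0.30 ± 0.09 (adjusted p = 0.0596), SQLE by -0.30 ± 0.10 (0.0784) and PMVK by 0.27 ± 0.10 (0.107). Among the regulators 0 of 5 passed (1 was lower, unadjusted), with SREBF1 at -0.38 ± 0.12 (0.07). FADS1, below the floor in both groups, was not called (0.121). The shEZH2 duplicates stood apart in HMGCS1 and FASN, as their values above show. Without shEZH2 replicate 2 the count of called genes was 6, with 5 lower and 1 higher, and with the 4 arrays fitted alone it was 0.

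**Figure D5:**
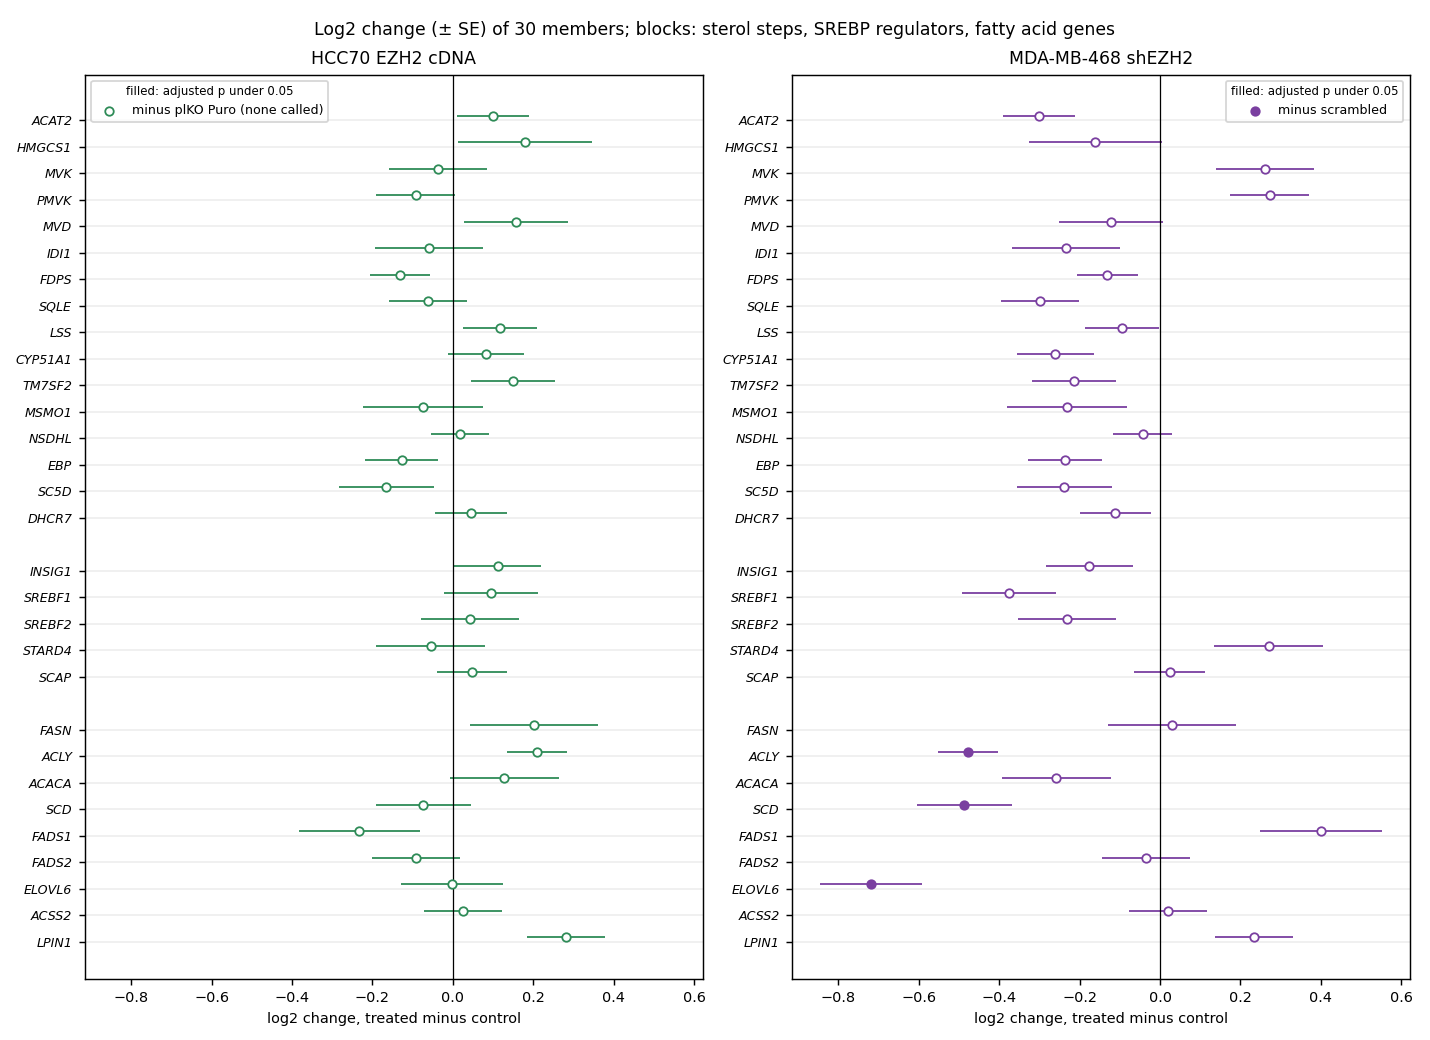
Log2 change ± SE of each of the 30 genes with EZH2 cDNA against plKO Puro in HCC70 (left) and with shEZH2 against scrambled shRNA in MDA-MB-468 (right); filled points passed an adjusted p of 0.05. No point is filled on the left, and ELOVL6, SCD and ACLY are on the right, ELOVL6 from levels below the floor of 6.

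The effect of EZH2 knockdown was compared between the lines by an interaction contrast. Against set a the change was lower in HCC70 for MVK (-0.59 ± 0.17, adjusted p = 0.0417) and ACSS2 (-0.51 ± 0.14, 0.0321) and higher for ELOVL6 (0.0334), which lay below the floor in MDA-MB-468. That was 2 lower and 1 higher of 30, where 4.27% and 8.97% of all clusters were, and 0 of the 3 calls held without each array in turn. The other 27 did not pass, FASN at -0.59 ± 0.23 (0.103) and DHCR7 at -0.34 ± 0.13 (0.0983) among them. The next largest were FADS1 (-0.36 ± 0.21), IDI1 (0.33 ± 0.19) and TM7SF2 (-0.30 ± 0.15). Against set b, 17 genes changed more downward in HCC70 and 1, ELOVL6, more upward, where 7.99% and 8.17% of all clusters were. MDA-MB-468 had 1 control pair only.

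The lines differed before any knockdown. In scrambled MDA-MB-468 21 of 30 genes were lower than in the mean of the HCC70 scrambled sets and 5 higher, where 32.1% and 37.1% of all clusters were. The lines were not compared with each set alone, and some of these calls depend on the set. LPIN1, called lower, read 7.85 and 7.88, above set a (7.45 and 7.41) and below set b (9.41 and 9.29). LSS, also called lower, read 8.40 and 8.35, within set a (8.33 and 8.41). Others, SQLE among them, lay below both sets. FADS2, FADS1 and ELOVL6, counted among the lower genes, lay below the floor in MDA-MB-468, so their differences are bounds. They passed the floor for testing only through their HCC70 arrays, so their calls between the lines are not read as support. Against the floor of 6, FADS2 was lower by at least 4.04, FADS1 by at least 2.48 and ELOVL6 by at least 1.51. Among genes above the floor in both lines, SQLE (-1.84 ± 0.084), SREBF2 (-1.64 ± 0.11), INSIG1 (-1.39 ± 0.094), CYP51A1 (-1.23 ± 0.083) and MSMO1 (-1.17 ± 0.13) were lower by the most. The higher genes were STARD4 (1.14 ± 0.12), ACSS2 (0.50 ± 0.084), SC5D (0.35 ± 0.10), NSDHL (0.27 ± 0.063) and ACLY (0.19 ± 0.064).

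The neighbouring genes of the pathway did not move as a block. Their counts, and those of the lists that follow, are to be read beside the shares of all clusters given above for each comparison. Of 15 other sterol and SREBP genes tested, 2 rose and 3 fell with shEZH2 against set a, and 4 rose and 5 fell against set b. INSIG2, the second INSIG, fell by 0.64 ± 0.089 and 1.19 ± 0.089 (adjusted p = 0.000805 and 2.98e-06), and LBR, a nuclear membrane protein with sterol reductase activity, by 0.41 ± 0.088 and 0.62 ± 0.088 (0.0118 and 0.000397). The lipoprotein receptor gene SCARB1 rose by 0.72 ± 0.14 and 0.44 ± 0.14 (0.00786 and 0.0385). SOAT1, which esterifies cholesterol, turned with the set, lower by 0.29 ± 0.074 against set a and higher by 0.49 ± 0.074 against set b (0.0286 and 0.000582). With shEED 1 rose and 3 fell against set b, and 2 rose and 2 fell against set a. INSIG2 fell by 0.48 ± 0.089 against set b (0.00353) and was at 0.063 against set a (0.605). SOAT1 fell by 0.79 ± 0.074 against set a (1.49e-05) and was at -0.0056 against set b (0.975). NPC2, which carries cholesterol out of lysosomes, rose by 0.38 ± 0.084 and 0.51 ± 0.084 (0.00975 and 0.000677). The NPC2 signal was above both sets with shEZH2 too. It read 10.30 and 10.30 there, against 9.76 and 9.70 in set a and 9.82 and 9.89 in set b. The median change of these 15 lay between -0.13 and -0.0096 over the 4 readings, against -0.85 to -0.33 for the sterol enzymes. None was called with EZH2 cDNA or in MDA-MB-468.

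Of 22 other fatty acid and lipid synthesis genes tested, 3 rose and 3 fell with shEZH2 against set a, 2 and 6 against set b; with shEED 1 rose and 3 fell against set b, 3 and 2 against set a. Against the floor, the elongase gene ELOVL7 rose by at least 0.38 with shEZH2 in HCC70, where both scrambled sets lay below it (adjusted p of the measured changes = 2.64e-06 and 5.94e-07) and by 0.67 ± 0.13 in MDA-MB-468 (0.0102). GPAM, which starts glycerolipid synthesis, rose with shEED by at least 0.67 against the floor (adjusted p of the measured changes = 0.000558 and 4e-05). The mean of each scrambled set lay below the floor, with set b replicate 1 at 6.02. ACSL1, an acyl-CoA synthetase, fell by 0.89 ± 0.11 with shEZH2 against set b (0.000137), was at -0.32 against set a (0.0828) and fell by 0.80 ± 0.11 in MDA-MB-468 (0.00201), where 2 of the 22 rose and 2 fell. PNPLA3, a lipase gene, fell by 0.75 ± 0.13 with shEED against set b (0.00288) and was at 0.05 against set a (0.793).

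Of 11 fatty acid oxidation genes, 1 rose and 0 fell with shEZH2 against set a, and 0 rose and 4 fell against set b, led by CPT1A, which admits fatty acids to mitochondria (-0.65 ± 0.091, adjusted p = 0.000367; -0.18 against set a, 0.238). With shEED 1 rose and 2 fell against set b and 2 and 2 against set a; ETFDH, an electron carrier of oxidation, rose by 0.54 ± 0.13 and 1.20 ± 0.13 (0.0202 and 5.15e-05). In MDA-MB-468 2 fell, CPT1A (-0.53 ± 0.091, 0.00654) and HADHA (-0.32 ± 0.071, 0.0202). Of 5 cholesterol efflux and LXR genes tested, 0 passed with shEZH2 against either set (0 at an unadjusted p under 0.05). MYLIP, an LXR target, fell with shEED by 0.39 ± 0.10 and 0.35 ± 0.10 (0.0246 and 0.0182). Against set a NR1H3, which encodes an LXR, also fell (-0.57 ± 0.10, 0.00098), with -0.15 against set b (0.386). CYP27A1, which makes an oxysterol, was called higher against set a (0.00219) and not against set b (0.22), below the floor in all 3 groups. It fell in MDA-MB-468 (-0.53 ± 0.13, 0.0308).

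Epithelial markers moved with shEED as well. Of 8, 5 fell against each set, KRT8 by 0.53 ± 0.093 and 0.58 ± 0.093 (adjusted p = 0.00272 and 0.000563) and KRT14 by 0.56 ± 0.087 and 1.30 ± 0.087 (0.00125 and 1.38e-06). With shEZH2 2 fell against set a, KRT14 (-0.82 ± 0.087, 0.000123) and EPCAM (-0.51 ± 0.13, 0.0253), and 0 of 8 were called against set b. COL1A1 was 0.47 ± 0.13 with shEZH2 against set b (0.0184) and was not called in the other 3 readings; the remaining 9 markers of other cell types stayed below the floor. The part of the epithelial markers in the sterol results was not tested.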

How the data were processed

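RNA was hybridised to Affymetrix Human Gene 1.0 ST arrays, 16 in all. The authors deposited log2 signals per transcript cluster, made with Affymetrix Expression Console and RMA, per the submitters' processing notes; versions were not given in the sources used here. RMA by its design brings arrays toward a common distribution, so these values are poorly suited to show a shift of all genes together. Array values carry no read depth, and their number limits the precision.

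Samples were grouped by their labels. All 16 arrays were fitted with limma 3.58.1 in R 4.3.3 as 8 group means (8 residual degrees of freedom), over the 16175 of 33297 clusters that reached a log2 signal of 6 on at least 2 arrays. Adjusted p-values are Benjamini-Hochberg values from limma over all tested clusters of a comparison, and a gene was called below 0.05. The fit was tested on simulated data with known changes. Gene symbols came from the platform annotation, and promoters from RefSeq.

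The genes and lists were chosen with earlier results of these data known. Each array's value is given for genes called in at least 1 of the 4 treatment comparisons, and up to 3 called genes per further list. The counts of knockdown arrays below or above all scrambled arrays, the bounds against the floor, and the shorter promoter form, were added after values were seen. Alternatives were other floors, clusters with 1 symbol only, other scaling, fits of the compared arrays alone and a replicate block. Further ones were the mean of a gene's clusters, both scrambled sets as control, and leaving out each array.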

Additional observations from a re-analysis of the deposited data

Results flagged for a closer look

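In 3 genes the change with shEZH2 differed between the lines by the interaction contrast, HCC70 (set a) minus MDA-MB-468. It was -0.5938 for MVK on the log2 scale, which changed by -0.33 in HCC70 and 0.26 in MDA-MB-468, neither of them called. It was -0.5065 for ACSS2, with -0.49 in HCC70 and 0.02 in MDA-MB-468. It was 0.6545 for ELOVL6, which changed by -0.064 in HCC70 and fell in MDA-MB-468 between levels below the floor. That value is therefore not read as the size of a difference between the lines. Their calls ended for MVK and ACSS2 when any 1 of 6 of the 8 arrays was left out, and for ELOVL6 with any 1 of 5.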

How the results depend on the processing

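The counts of called genes among the 30 kept to within 1.5 times the reported value under the alternatives tried, with these exceptions. With no floor, the count for shEZH2 against set a was 5 and for the difference between lines 0. With clusters of 1 symbol only, or with arrays centred on their medians, shEZH2 in MDA-MB-468 gave 5, and centring gave 0 for the difference between lines. With only the compared arrays fitted, shEZH2 gave 0 against set a and 0 in MDA-MB-468, shEED against shEZH2 gave 6 and the difference between lines 0; fewer arrays leave fewer residual degrees of freedom. With both scrambled sets as control, shEZH2 in HCC70 gave 21 and the difference between lines 12; with set b as its HCC70 control, 18.

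The replicate numbers did not pair the samples (correlations of deviations 0.077, -0.023, -0.002 and 0.002); a replicate block gave 5 for shEZH2 against set a and 1 for the difference between lines.

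Leaving out 1 array gave 1 to 8 genes for shEZH2 against set a, 2 to 6 in MDA-MB-468, 11 to 14 between the sets, 6 to 13 for shEED against shEZH2 and 0 to 3 for the difference between lines.

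Among values for single genes, 8 turned direction with a call on at least 1 side, all of them with another control. With both sets as control, shEZH2 gave -0.4339 for STARD4 and -0.8502 for LPIN1, and shEED gave 0.0252 for FADS2, 0.2131 for LPIN1, -0.0434 for FDPS and -0.3889 for SCD. With set b, the difference between lines was -0.4953 for FDPS and -0.6892 for SCD. The 2 sets differ in these genes, as reported; the cause was not tested. Leaving out arrays aside, 2674 values for single genes kept direction and side of the threshold, 83 newly passed it and 73 no longer did.

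Over all clusters, fitting only the compared arrays moved the calls with shEZH2 from 1837 to 276 (set a) and 4325 to 2143 (set b), with shEED against set b from 2290 to 4439, between the sets from 3677 to 6269, between knockdowns from 5169 to 3065, between lines from 2141 to 500, in MDA-MB-468 from 1343 to 21 and with EZH2 cDNA from 158 to 0. The last was 88 with no floor or with centring and 39 with the block; MDA-MB-468 was 848 with no floor and 679 with the block. Both sets as control gave 3048 for shEZH2 and 4465 for shEED.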
